A study of Drosophila melanogaster with 4 samples.

Results

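The genes described here are 10 components of the machinery that sends, receives and carries out Notch signals: the ligands *Dl* and *Ser*, the glycosyltransferase *fng*, the proteases *kuz*, *Psn* and *nct*, the nuclear factors *Su(H)*, *mam* and *H*, and the ubiquitin ligase *Su(dx)*. They were picked by symbol, with earlier results of these data known. All 10 were found among the 13909 genes of the files, with 35 of the 29850 transcripts that could be assigned to a gene. RNA-seq was done on wild-type *Drosophila* S2R+ cells and on S2R+ cells in which CRISPR-Cas9 had removed the enhancer inside an intron of *Notch* (*N*). Each genotype had 2 libraries, and no treatment beyond the editing procedure is named. S2R+ is a tetraploid line grown from late embryos and has features of hemocytes, the blood cells of the fly. The mutant cells came from cells transfected with Cas9 plasmids and selected with puromycin, and were expanded from a homozygous clone. Nothing in the sources says that the wild-type cells were transfected, selected or cloned. An effect of the deletion and a difference from this handling or carried by the clone therefore cannot be told apart.

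Notch is a receptor whose ligands sit on neighboring cells. In *Drosophila* the ligands are Delta (encoded by *Dl*) and Serrate (*Ser*), and Fringe (*fng*) adds a sugar to Notch that favors Delta over Serrate. After ligand binding, the metalloprotease Kuzbanian (*kuz*) sheds the outer part of the receptor and gamma-secretase, the complex built around Presenilin (*Psn*) and Nicastrin (*nct*), cuts it inside the membrane. The released intracellular domain joins the DNA-binding protein Suppressor of Hairless (*Su(H)*) and the coactivator Mastermind (*mam*) on target genes, where Hairless (*H*) otherwise holds Su(H) in a repressing complex. Suppressor of deltex (*Su(dx)*) is a ubiquitin ligase that directs Notch toward degradation.

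The authors estimated transcript abundance with Salmon and deposited an estimated count and a TPM value (a level relative to the whole library and corrected for transcript length) for each transcript. The libraries held 19410313 and 16240543 counts in wild-type replicates 1 and 2, and 29605002 and 24880286 in enhancer mutant replicates 1 and 2. Counts were summed per gene, and 8182 genes had enough of them to be tested with edgeR's quasi-likelihood test. A gene was called when its Benjamini-Hochberg adjusted p was below 0.05 and its log2 fold change, mutant over wild-type, was at least 0.5 in either direction. By this rule 27.9% of the tested genes were called, 12.6% as higher and 15.3% as lower in the mutant. Fold changes below are on TMM-scaled counts, on which the median tested gene was at -0.004. On TPM the median tested gene stood at -0.438, so a TPM ratio near that value lies at the middle of all genes. Of 10 hemocyte markers, *srp*, *ush*, *Pvr* and *Pxn* were well covered and not called. *NimC1* (at most 2 counts) and *eater* (22 and 2 counts in wild-type cells, 8 and 1 in the mutant) could not be tested. *Sr-CI* was called higher (0.60), and *Hml* (-1.79), *Col4a1* (-1.29) and *vkg* (-0.54) were called lower. The summed TPM of the list was 292 and 282 in wild-type cells and 252 and 212 in the mutant. The summed TPM of 4 germ line markers was 13.6 and 14.5 in wild-type cells and 0.928 and 0.694 in the mutant, with the 3 that could be tested called lower. For neuron markers the sums were 15.1 and 12.3 against 8.28 and 8.29, and for glia 35.2 and 27.7 against 30.8 and 24.1. Muscle markers had 16.5 and 15.9 against 11.7 and 10.2, with *Act57B* called higher (1.93). Crystal cell markers had 3.15 and 2.25 against 1.52 and 1.69, with *peb* called lower (-1.35). Fat body markers could not be tested. The part of these marker differences in the results below was not tested.

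*Notch* itself (chromosome X, 3134870 to 3172221, plus strand; all coordinates are dm6) had 3276 and 2208 counts in wild-type replicates 1 and 2 and 1064 and 809 in mutant replicates 1 and 2. Its TPM was 15.0 and 12.5 in wild-type cells and 2.80 and 2.36 in the mutant. The mutant libraries thus lay far below both wild-type libraries, although they were the deeper ones. The log2 fold change was -1.96 ± 0.126 (SE), or 25.7% of the wild-type level, with an edgeR adjusted p of 9.46e-07. Expression of the edited gene was thus lower in the libraries labelled as mutant.

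Of the 10 components, 9 could be tested, none was called higher and 4 were called lower: *Ser*, *fng*, *mam* and *H*. The percentages above give the background for these counts, and at an unadjusted p below 0.05 there were 3 components with higher and 5 with lower values. DESeq2 also called 0 higher and 4 lower. The median log2 fold change of the 9 was -0.49, with a range from -2.24 to 0.32, against a median of 0 for all tested genes. On the adjusted p alone, which 48.7% of tested genes passed, 7 of the 9 passed, 2 of them with higher values in the mutant. The 10 genes also covered a wide range of levels. In wild-type cells the order by mean TPM ran from *Psn* (109) through *kuz* (55.5), *mam* (46.1), *nct* (44.3), *Su(dx)* (42.5), *H* (26.1), *Su(H)* (5.75), *fng* (0.932) and *Ser* (0.457) to *Dl* (0.0546). The neighbors *mam*, *nct* and *Su(dx)* overlapped in their wild-type values, whereas the other neighbors in this order did not. In the mutant *mam* (22.9) stood below *nct* (39.6) and *Su(dx)* (36.2), and the other ranks were as in wild-type.

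**Figure D1:**
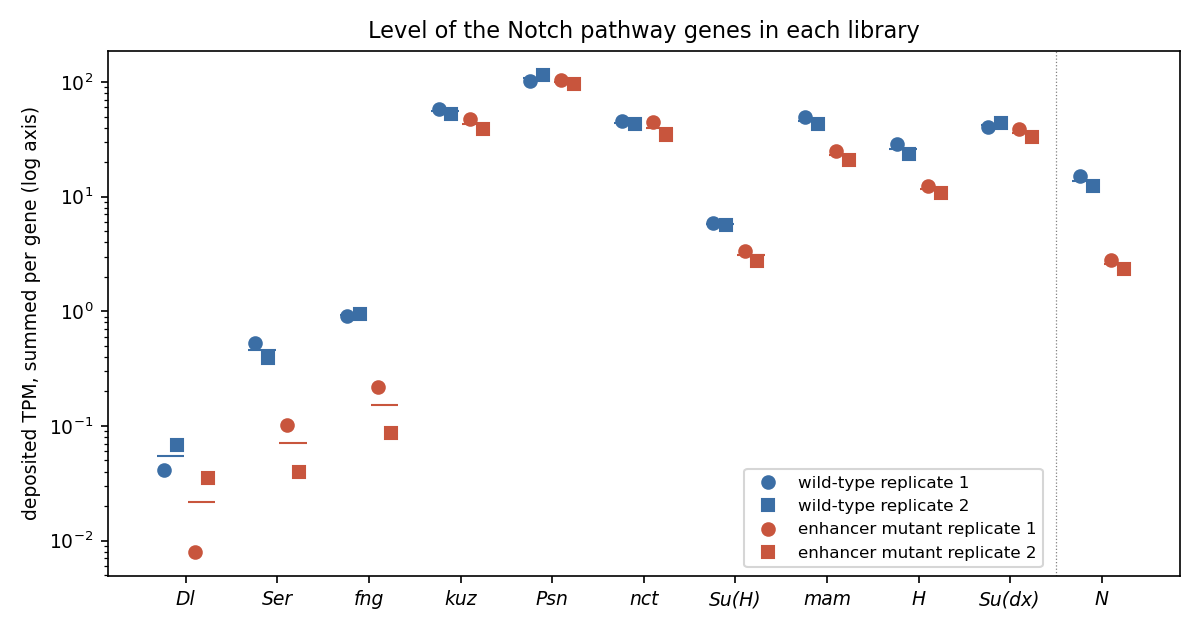
Deposited TPM summed per gene (log axis) for the 10 components and, right of the dotted line, *N*, with each point a library and each bar the mean of a genotype. *Ser* and *fng* lie below 1 TPM in every library and drop further in the mutant, *mam* and *H* lie lower in both mutant libraries, and *Psn* and *nct* overlap between genotypes.

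Both ligand genes and *fng* had few reads in these cells, and *Ser* and *fng* fell in the mutant while *Dl* could not be tested. *Dl* (FBgn0000463, minus strand of chromosome 3R, 19302731 to 19326217) had 3 and 4 counts in wild-type cells and 1 and 4 in the mutant, with TPM of 0.0413 and 0.0680 against 0.00798 and 0.0352. These counts lie at or next to a floor of 3 counts per library, the gene could not be tested, and no fold change is given. *Ser* (FBgn0004197, minus strand of 3R, 27172090 to 27194267) had 62 and 37 counts in wild-type cells and 21 and 7 in the mutant, or 0.527 and 0.388 TPM against 0.101 and 0.0393. Neither mutant library reached the wild-type range, despite the greater depth. *Ser* fell to 21.2% of the wild-type level, with a log2 fold change of -2.24 ± 0.416 (SE) and an edgeR adjusted p of 0.00144.

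*fng* (FBgn0011591, minus strand of 3L, 20925891 to 20949512) had its reads in the same libraries. It had 34 and 29 counts in wild-type cells and 14 and 5 in the mutant, which are 0.914 and 0.949 TPM against 0.217 and 0.0859. The groups did not overlap, and *fng* fell to 22.6% of wild-type, with a log2 fold change of -2.15 ± 0.439 (SE) and an edgeR adjusted p of 0.00245. *Ser* and *fng* were the components with the largest fold changes and also, after *Dl*, those with the fewest reads. Relative to their level, the mutant replicates of both genes lay further apart than the wild-type replicates. Without mutant replicate 1 the log2 fold changes were -3.04 for *Ser* and -2.88 for *fng*, and without mutant replicate 2 they were -1.76 and -1.70. Both genes remained called in all 4 fits with a library left out. A level below 1 TPM in bulk RNA can come from few cells or from little RNA in each cell, and the files cannot separate these.

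The protease that sheds the ligand-bound receptor was not called, with values that overlapped between genotypes. *kuz* (FBgn0259984, plus strand of 2L, 13550139 to 13639411) had 357 and 303 CPM (counts relative to the TMM-scaled library size) in wild-type cells and 356 and 324 in the mutant. The log2 fold change was 0.04 with a 95% interval from -0.19 to 0.28, and the edgeR adjusted p was 0.762. The whole interval lay far above the fold change of *Notch*. On TPM the values were 58.7 and 52.2 in wild-type cells and 47.1 and 39.1 in the mutant, a log2 ratio of -0.36 that lay close to the shift of all genes on that scale. Relative to the receptor, *kuz* had 3.92 and 4.19 times the TPM of *N* in wild-type cells and 16.8 and 16.6 times in the mutant.

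Transcripts of gamma-secretase had higher scaled counts in the mutant, while the TPM of *Psn* and *nct* overlapped between genotypes. *Psn*, the catalytic subunit (FBgn0284421, plus strand of 3L, 20432468 to 20435156), was the most abundant of the 10, with 176 and 191 CPM in wild-type cells and 227 and 231 CPM in the mutant. Both mutant libraries were above both wild-type libraries. The log2 fold change of 0.32 ± 0.0905 (SE) had an edgeR adjusted p of 0.0139 but was under the limit of 0.5, so *Psn* was not called. *nct*, the subunit that binds substrates (FBgn0039234, plus strand of 3R, 24851601 to 24854869), had 124 and 111 CPM in wild-type cells and 156 and 132 CPM in the mutant. Its log2 fold change was 0.29 ± 0.109 (SE) with an edgeR adjusted p of 0.0491, also without a call.

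The complex has 2 further subunits, both outside the 10. *aph-1*, which stabilizes the complex, had 1131 and 966 counts in wild-type cells and 2417 and 2328 in the mutant, and it rose by a log2 fold change of 0.77 ± 0.104 (SE) with an edgeR adjusted p of 0.000208. *pen-2*, needed for Presenilin to mature, had 724 and 642 counts against 1326 and 1144, with a log2 fold change of 0.44 and an edgeR adjusted p of 0.0026. All 4 subunits thus had higher scaled counts in both mutant libraries. Of the 4 only *aph-1* also had higher TPM in both, and only *aph-1* passed the call. The share of all tested genes that were apart in this way on scaled counts was not computed. With library sizes alone the log2 fold changes of *Psn* and *nct* were 0.123 and 0.094, where the median tested gene was at -0.199. Within each library, the TPM of *Psn* was 2.24 and 2.70 times that of *nct* in wild-type cells and 2.34 and 2.81 times in the mutant, which overlap. The ratio of *aph-1* to *nct* was 1.58 and 1.77 in wild-type cells and 2.0 and 2.83 in the mutant, so it did not overlap. On TPM, *Psn* (103 and 116 against 105 and 96.8) and *nct* (45.8 and 42.9 against 44.8 and 34.4) overlapped between genotypes. So did *pen-2* (96.7 and 102 against 105 and 99.4), while *aph-1* stayed higher (72.4 and 76.0 against 89.7 and 97.5). The log2(TPM + 1) differences of *Psn* and *nct* were -0.111 and -0.170, where the median tested gene was at -0.36. Exons of *nct* share 374 bp with *HDAC11* on the other strand, 12.9% of the exonic length of *nct*, and those of *Psn* share 47 bp with *mRpL15*. *HDAC11* had 53 to 104 counts, against 1948 to 4348 of *nct*.

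The genes of the DNA-binding Su(H) and of its partners Mastermind and Hairless all had lower scaled counts in the mutant. Of these *mam* and *H* were called, beside 15.3% of all tested genes called lower. *Su(H)* (FBgn0004837, plus strand of 2L, 15039488 to 15043334) was the least abundant of them, with 17.2 and 15.8 CPM in wild-type cells and 12.4 and 11.2 CPM in the mutant. The groups were apart, and the log2 fold change of -0.49 ± 0.13 (SE) had an edgeR adjusted p of 0.0103, but it stopped just short of the fold limit and was not called. Several settings carried it over that limit, among them library sizes alone (-0.681), upper quartile factors (-0.521) and leaving out wild-type replicate 2 (-0.535) or mutant replicate 1 (-0.551). Others kept it inside the limit, among them DESeq2 (-0.471, DESeq2 adjusted p = 0.0569) and leaving out wild-type replicate 1 (-0.421) or mutant replicate 2 (-0.406).

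*mam* (FBgn0002643, plus strand of 2R, 13991203 to 14060356) had 268 and 220 CPM in wild-type cells and 171 and 155 CPM in the mutant. It fell to 66.9% of wild-type, with a log2 fold change of -0.58 ± 0.111 (SE) and an edgeR adjusted p of 0.00169. *H* (FBgn0001169, plus strand of 3R, 20621938 to 20628915) had 140 and 112 CPM in wild-type cells and 83.3 and 75.6 CPM in the mutant. It fell to 63.0% of wild-type, with a log2 fold change of -0.67 ± 0.12 (SE) and an edgeR adjusted p of 0.00117. For both genes the mutant libraries lay below the wild-type libraries, and wild-type replicate 1 was the highest. Without that library the log2 fold changes were -0.427 for *mam* and -0.493 for *H* and neither was called, leaving *Ser* and *fng* as the called components, and without mutant replicate 2 *mam* was at -0.498 with an edgeR adjusted p of 0.0565. The coactivator and the adaptor of corepressors thus had lower levels together. The TPM of *mam* was 1.74 and 1.80 times that of *H* in wild-type cells and 1.99 and 1.94 times in the mutant. *H* had 4.87 and 4.21 times the TPM of *Su(H)* in wild-type cells and 3.70 and 3.92 times in the mutant, while the ratio of *mam* to *Su(H)* overlapped (8.46 and 7.58 against 7.37 and 7.61).

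**Figure D2:**
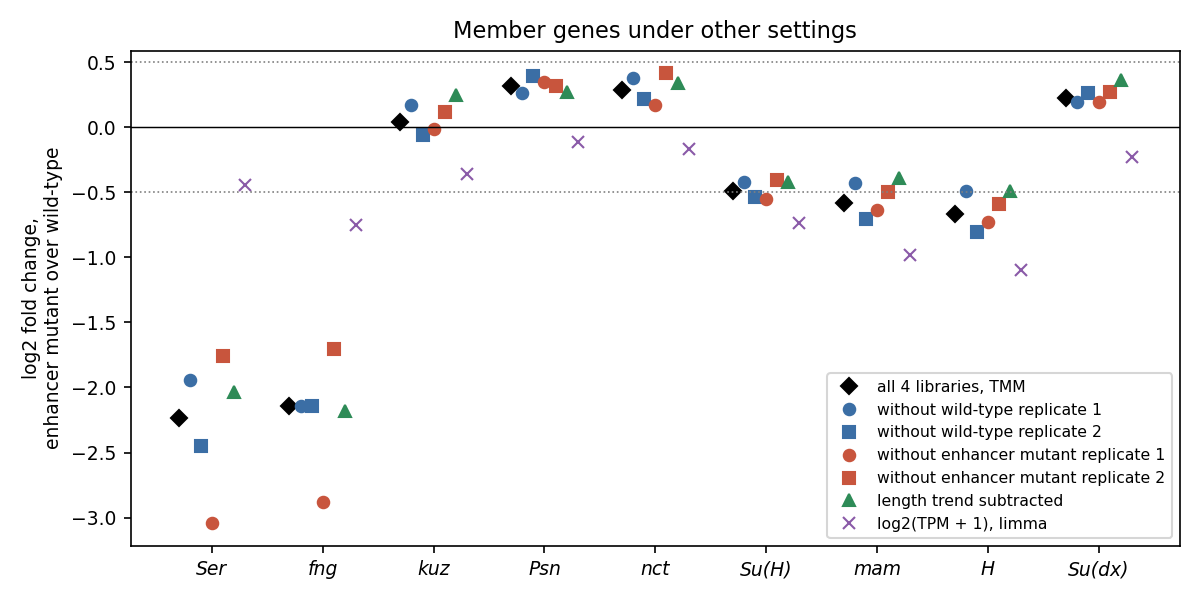
Log2 fold change (mutant over wild-type) of the 9 tested components with all 4 libraries, with each library left out, with the length trend subtracted and on log2(TPM + 1); dotted lines mark the limit of 0.5. *Ser* and *fng* stay past the limit with any library left out, and *Su(H)*, *mam* and *H* lie on both sides of it. *kuz* lies on both sides of 0, and *Psn*, *nct* and *Su(dx)* lie below 0 only on log2(TPM + 1).

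*Su(dx)* (FBgn0003557, plus strand of 2L, 2037714 to 2044372) had 175 and 182 CPM in wild-type cells and 214 and 202 CPM in the mutant. Both mutant libraries were higher, but the log2 fold change of 0.22, with a 95% interval from 0.02 to 0.42, had an edgeR adjusted p of 0.0604 and was not called. On TPM it was lower in both mutant libraries (40.7 and 44.3 against 39.0 and 33.4, with a log2(TPM + 1) difference of -0.229). The median tested gene was at -0.36 on log2(TPM + 1), so *Su(dx)* lay above the middle of all genes on both scales. Over all components, the TPM of 7 of the 9 tested was below the wild-type range in each mutant library, a separation that 71% of tested genes showed.

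A list of 33 other genes of the pathway set these values in context, of which 29 could be tested. In it 1 gene was called higher (*aph-1*) and 5 were called lower (*N*, *Tace*, *nej*, *neur* and *dx*), with a median log2 fold change of -0.06 over a range from -1.96 to 0.77. These 6 calls among 29 stand beside 27.9% of all tested genes called, 12.6% higher and 15.3% lower, so calls were not more frequent in the list than among genes in general. *neur*, a ubiquitin ligase that makes ligands active through their endocytosis, had 1151 and 1013 counts in wild-type cells and 1093 and 816 in the deeper mutant libraries, and it fell by 0.61 on the log2 scale (edgeR adjusted p = 0.000413). *dx*, which encodes Deltex, a ubiquitin ligase that binds the intracellular part of Notch, had 1679 and 1395 counts against 1510 and 1270 and a log2 fold change of -0.56 (edgeR adjusted p = 6e-04). *nej*, the acetyltransferase CBP that Mastermind brings to target genes, had 14395 and 8073 counts against 10898 and 7457. Its log2 fold change was -0.70 with an edgeR adjusted p of 0.00637, but wild-type replicate 1 stood apart, without it the value was -0.361, and DESeq2 gave an adjusted p of 0.0898.

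*Tace*, a metalloprotease of the same family as *kuz*, had 16 and 17 counts in wild-type cells and 9 and 6 in the mutant. Its log2 fold change of -1.55 (edgeR adjusted p = 0.0187) rests on few reads, and it was not called by DESeq2 (adjusted p = 0.179) or with wild-type replicate 2 (adjusted p = 0.113), mutant replicate 1 (0.106) or mutant replicate 2 (0.151) left out in edgeR. The other 23 tested genes were not called, among them the corepressors *gro* (-0.24) and *CtBP* (0.38) that Hairless recruits. The 4 genes that could not be tested were the Neuralized inhibitors *Brd*, *Tom*, *Ocho* and *BobA*, with at most 4 counts in any library. These inhibitors of Neuralized were thus not measurable at this depth.

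**Figure D3:**
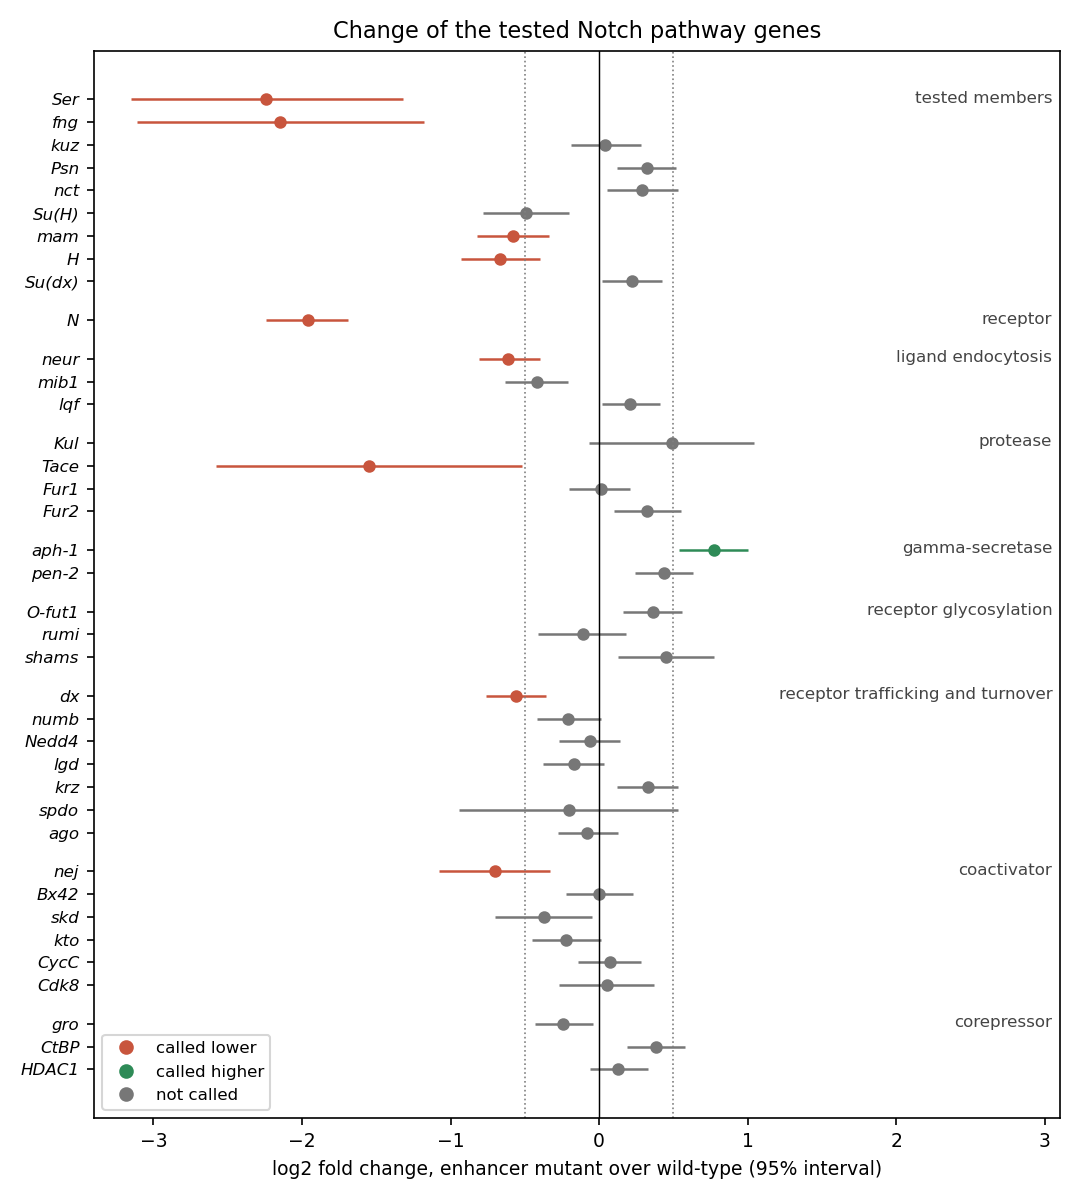
Log2 fold change (mutant over wild-type) with its 95% interval for the 9 tested components, the receptor and the other 28 tested pathway genes, grouped by role. *Ser*, *fng*, *N* and *Tace* lie lowest, from -2.24 to -1.55, and *aph-1* at 0.77 is the gene called higher.

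Genes that Notch switches on in other tissues were mostly silent in these cells. Of 20 such genes, 11 had at most 3 counts in every library, including 6 with no count at all, and 4 could be tested. Over all 13909 genes, 4415 had at most 3 counts in every library, including 2689 with no count, and 8182 could be tested. The E(spl) repressor genes with a measurable level were *E(spl)mbeta-HLH*, with 308 and 242 counts in wild-type cells and 390 and 302 in the mutant, and *E(spl)m3-HLH*, with 182 and 145 against 175 and 175. Neither was called, with log2 fold changes of -0.09 (95% interval from -0.37 to 0.19) and -0.31 (from -0.70 to 0.08). *ct*, a homeobox gene, fell by 0.60 on the log2 scale with 2691 and 1570 counts against 2108 and 1617 (edgeR adjusted p = 0.00807). Without wild-type replicate 1 *ct* was at -0.291, and without mutant replicate 1 or 2 its adjusted p was 0.0738 or 0.119, so the call did not stand without those libraries. *klu*, a zinc finger gene, had 52 and 17 counts in wild-type cells and 70 and 45 in the mutant and was not called (0.33), although without wild-type replicate 1 it was called higher (1.21).

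Some transcripts had larger fold changes than the genes they belong to, as in *kuz*, and others had smaller ones. The difference between a transcript and its gene was not tested. The files hold 35 transcripts of the 10 genes, of which 30 could be tested, 4 were called higher and 3 lower, against 10.5% of all tested transcripts called. Salmon divides reads among transcripts that share exons, and that uncertainty is not part of the test. These calls needed all 4 libraries: with a library left out, 0 or 1 of the 30 were called, and 10 to 14 had an unadjusted p below 0.05. Among all transcripts, leaving out either mutant library left 0 called, with 3825 and 3319 at an unadjusted p below 0.05.

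Within *kuz*, isoforms differed between genotypes while the gene as a whole was not called. *kuz-RA* held 26.1% and 24.5% of the TPM of the gene in wild-type cells and 7.21% and 5.67% in the mutant, with 1800 and 1220 counts against 691 and 405. It fell by 1.90 on the log2 scale (edgeR adjusted p = 0.0212). *kuz-RF* held 4.41% and 3.47% in wild-type cells and 15.9% and 12.4% in the mutant, with 268 and 152 counts against 1340 and 782. It rose by 1.91 (edgeR adjusted p = 0.0298). Both share their last exon, and in the annotation *kuz-RF* lacks an exon of 460 bp (2L, 13636384 to 13636843) that *kuz-RA* includes and starts with a first exon of 155 rather than 282 bp.

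The other 3 *kuz* transcripts were less mobile. *kuz-RC* rose by 0.63 (edgeR adjusted p = 0.0317), from 8.84% and 10.8% of the gene to 14.0% and 14.8%. *kuz-RG*, which ends earlier, went from 17.4% and 14.6% to 23.5% and 23.6% without a call (edgeR adjusted p = 0.0982), and *kuz-RB*, the main form, held 43.3% and 46.6% in wild-type cells and 39.4% and 43.4% in the mutant. *kuz-RA* and *kuz-RB* encode the same protein of 1238 residues, the longest of the locus. Their joint share was 69.4% and 71.1% in wild-type cells and 46.6% and 49.1% in the mutant, and transcripts for the proteins of 1219, 1161 and 1090 residues made up the rest. These forms differ downstream of the shared exons, toward the C-terminal end. Shares were not tested.

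**Figure D4:**
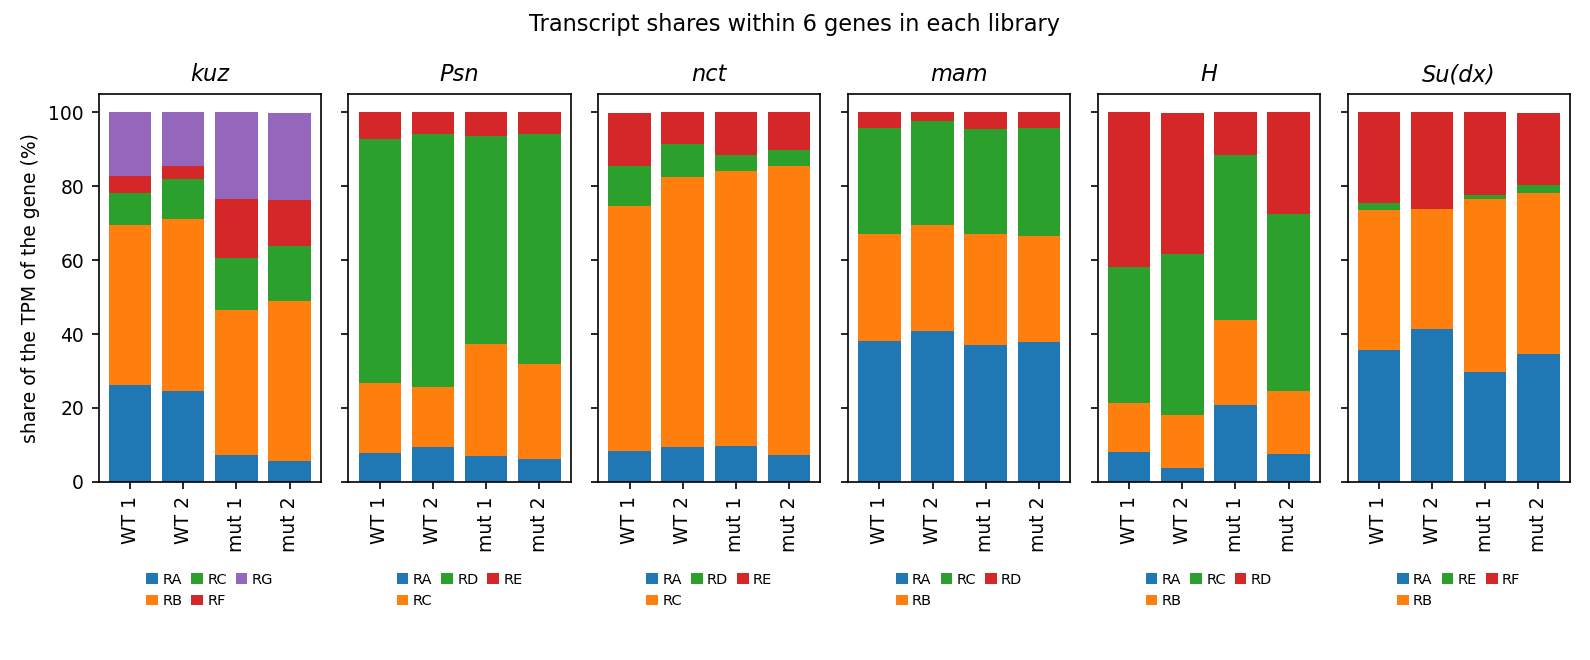
Share of the TPM of each gene held by its transcripts (%) in wild-type (WT) and mutant (mut) replicates 1 and 2, for 6 of the components. In *kuz* the RA share shrinks from 26.1% and 24.5% to 7.21% and 5.67% as RF grows, in *Psn* the RC share grows, and in *mam* the shares stay nearly level.

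*Psn* showed a smaller move of the same kind. *Psn-RC*, which uses the shortest form of its seventh exon (159 bp against 216 or 258 bp) and encodes 508 residues, held 18.8% and 16.2% of the gene in wild-type cells and 30.3% and 25.6% in the mutant. It rose by 1.0 on the log2 scale (edgeR adjusted p = 0.0222). *Psn-RD*, the main form with 527 residues, held 66.2% and 68.5% in wild-type cells and 56.2% and 62.2% in the mutant and was not called (0.13). In *Su(dx)*, whose transcripts all encode the same 949 residues, *Su(dx)-RB* rose by 0.58 (edgeR adjusted p = 0.0469) and went from 38.0% and 32.4% to 46.9% and 43.8%. *Su(dx)-RA* (35.6% and 41.5% against 29.7% and 34.5%) and *Su(dx)-RF* (24.5% and 26.1% against 22.4% and 19.6%) were not called.

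For the nuclear factors most transcripts had lower values, as the genes did. The main forms of *mam* kept similar shares, with *mam-RA* at 38.1% and 40.7% in wild-type cells and 37.1% and 37.8% in the mutant, *mam-RB* between 28.7% and 30% and the short *mam-RC* of 433 residues between 28.0% and 29.2%. *mam-RA* was called lower (-0.66, edgeR adjusted p = 0.03), and *mam-RB* and *mam-RC* had the same log2 fold change of -0.57 without a call. Of *H*, *H-RC* was called lower (-0.53, edgeR adjusted p = 0.0366) while its share went from 36.8% and 43.4% to 44.7% and 47.8%. *H-RD* held 41.8% and 38.4% in wild-type cells and 11.5% and 27.6% in the mutant, with a log2 fold change of -1.81 that was not called (edgeR adjusted p = 0.069). *H-RA* ranged from 3.74% to 20.9% and *H-RB* from 13.5% to 22.9%, neither with a call.

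In the remaining genes no transcript was called. *Su(H)-RA* held 96.0% and 100% of *Su(H)* in wild-type cells and 74.8% and 91.4% in the mutant, and *Su(H)-RC*, which ends earlier, had the remainder. *Nct-RC* held most of *nct*, from 66.2% to 78.1%, *Nct-RE* held 8.48% to 14.4%, and *Nct-RD* held 10.9% and 8.93% in wild-type cells and 4.19% and 4.27% in the mutant. *fng* has a single transcript, which holds the same reads as the gene. In the transcript test its log2 fold change was -2.19 with an edgeR adjusted p of 0.132, against 0.00245 in the gene test. The call of *fng* thus held among genes but not among transcripts. *Delta-RB* carried all reads of *Dl*. The split of *Ser* between *Ser-RA* and *Ser-RB*, which differ at their start, was not stable, with *Ser-RA* at 39.8% and 48.7% in wild-type cells and at 9.59% and 100% in the mutant, where the gene had 21 and 7 counts.

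The 10 genes lie on the arms 2L, 2R, 3L and 3R and none is on chromosome X with *Notch*. Tested genes on these arms had a median log2 fold change of 0.04, 0.01, 0.01 and -0.03, so the arms were close to even. The neighbors of each component were the 10 tested genes on either side, over spans from 98.5 to 916 kb. Among these 20 genes, 1 to 7 were called lower and 0 to 5 higher, beside 15.3% and 12.6% of all tested genes. The count of lower neighbors was highest around *Ser* (7 lower, 1 higher), *Dl* (6 and 3) and *H* (5 and 1), and *N* had 7 and 2. Around *fng* 3 were called lower and 0 higher, and around *mam* 2 and 5.

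Length moved with the fold changes and bears on the nuclear genes. Across tested genes, which are not independent replicates, the log2 fold change had a correlation of -0.135 with the log2 effective length. In 5 equal groups of genes, from the shortest to the longest, the median was 0.21, 0.06, 0.01, -0.10 and -0.22. In the longest group 24.9% were called lower, and in the shortest group 21.6% were called higher. *Ser*, *kuz*, *mam*, *H* and *Su(dx)* belong to the longest group. Replicate 1 stood above replicate 2 there by a median of 0.13 on the log2 scale in wild-type and by 0.14 in the mutant. The trend was subtracted from the fold changes alone, with the adjusted p kept from the main fit and no new test. Then *mam* (-0.392) and *H* (-0.492) no longer reached the limit, and 2 components still met the rule, *Ser* (-2.04) and *fng* (-2.18). Of the other genes called lower, *neur* (-0.493), *dx* (-0.442), *nej* (-0.465) and *ct* (-0.351) also fell short of the limit then. *Su(dx)* and *kuz*, of similar length to *mam* and *H*, lay above the trend by 0.37 and 0.25, and *nct* by 0.34. *aph-1* and *pen-2* belong to the shortest group. The trend there was 0.13 for *aph-1* and 0.29 for *pen-2*, and they lay above it by 0.63 and 0.14.

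**Figure D5:**
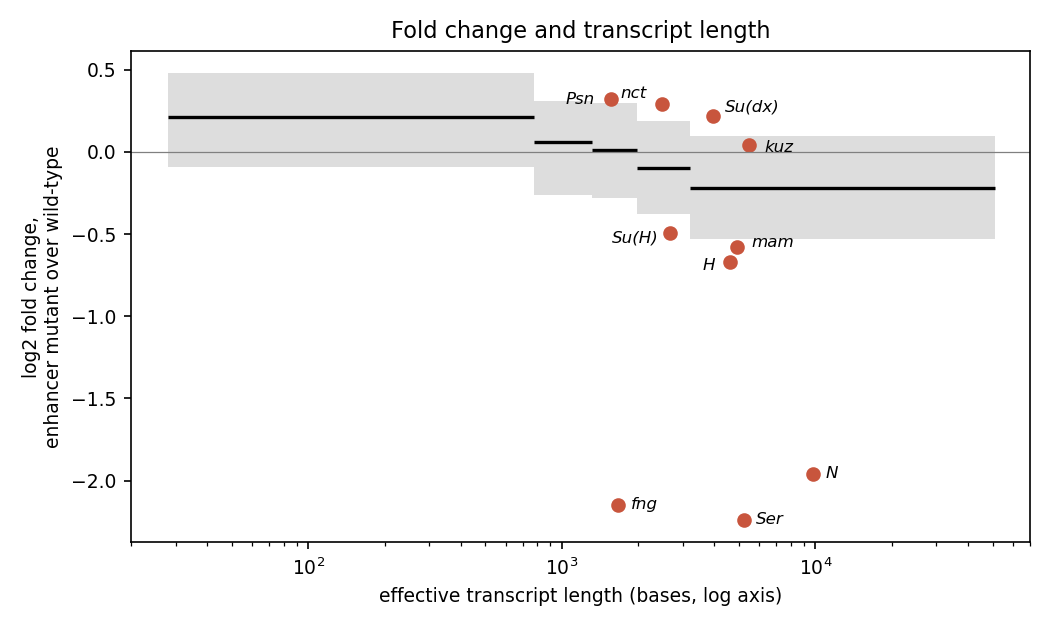
Log2 fold change (mutant over wild-type) of the 9 tested components and *N* against effective transcript length in bases (log axis). Black lines and grey bands give the median and interquartile range of all tested genes in each of 5 length groups, from 0.21 in the shortest to -0.22 in the longest, with *Ser* and *fng* far below the bands and *mam* and *H* near their lower edge.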

How the data were processed

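RNA-seq was done on total RNA of S2R+ cells, 2 wild-type and 2 enhancer mutant libraries, grouped by the genotype and replicate number in the labels. The authors quantified paired-end reads against a dm6 transcriptome with Salmon (0.10.2 in the submitters' processing notes), with selective alignment and GC bias correction. Each estimated count in the files of the authors is Salmon's share of the reads for a transcript, without normalization. The deposited TPM values, also from Salmon, are relative to the library and the effective length, itself a column of the files. The annotation release behind their index and the strandedness of the kit are not given in the sources used here.

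The Ensembl annotation gave a gene for 29850 of 30070 transcripts. The other 220 held 0.23% to 0.292% of the counts of a library and stayed out of the tests. The length of all 35 transcripts of the components equals that of the annotation. The annotation names *Dl* Delta and *nct* Nct. Counts were summed per gene, rounded and tested in edgeR 4.0.16 (R 4.3.3) with filterByExpr, TMM, glmQLFit and glmQLFTest on genotype alone, with adjustment over all genes, or all transcripts, tested. The fold limit of the methods was read as a log2 value. Standard errors were derived from the log2 fold change and its F statistic. The common biological coefficient of variation was 0.0849. With so few libraries the smallest p of an exact two-sided permutation test is 0.333, so p-values rest on the spread shared across genes. They measure the spread between libraries, which the methods call independent without naming separate cultures. The chi-square per degree of freedom between libraries of a genotype was 31.5 for wild-type and 15.8 for the mutant, far from sampling noise, and all 4 libraries were counted as separate.

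Alternatives were RLE and upper quartile factors, library sizes alone, DESeq2 1.42.0, no filter, a minimum of 10 counts per library, effective length as an offset, a replicate block, each library left out, other call limits, limma 3.58.1 on log2(TPM + 1) with a pseudocount of 1, and, chosen after the values were seen, the fold change minus its loess trend on effective length. The setting with the length trend subtracted kept the adjusted p of the main fit. The tests were tried on simulated counts first. Components and lists were chosen with earlier results of these data known. The text names all 10 components, *N*, the called genes of the lists of pathway and target genes, and transcripts holding at least 10% of a component's TPM in any library. *pen-2*, *gro*, *CtBP*, *klu*, the uncalled targets, the untested inhibitors, markers and overlapping genes were named after their values were seen. Fold changes of groups at the floor of 3 counts are not given. No sequences are shown, since none was read here.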

Additional observations from a re-analysis of the deposited data

How the results depend on the processing

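The number of components called was 3 to 5 under the factors, filters, tools and units tried. It was 2 to 5 with each library left out (2 without wild-type replicate 1), 7 on the adjusted p alone and 2 with the length trend subtracted. *kuz* turned negative with library sizes alone (-0.150), on log2(TPM + 1) (-0.360), without wild-type replicate 2 (-0.059) and without mutant replicate 1 (-0.011), within a range from -0.059 to 0.169 over the libraries left out. On log2(TPM + 1), *Psn* (-0.111), *nct* (-0.170), *Su(dx)* (-0.229) and *klu* (-0.016) were also negative, where the median tested gene was at -0.36. *klu* was at -0.165 without wild-type replicate 2, within a range from -0.165 to 1.21. On log2(TPM + 1) *Ser* was at -0.444 and not called, since the pseudocount shrinks low genes, while *Su(H)* was called (-0.735). With at least 10 counts in every library *Ser* and *fng* were not tested, and the called components were *Su(H)* (-0.511), *mam* and *H*. Other pathway genes called numbered 4 to 7 with a library left out, 13 on log2(TPM + 1) and 14 on the adjusted p alone. Targets called were 2 with library sizes alone and 2 on log2(TPM + 1), 0 with the length trend subtracted and 0 to 1 with a library left out. Without mutant replicate 1 or 2, with 0 targets called, 1 and 2 had an unadjusted p below 0.05. Genome-wide, 3984 genes passed the adjusted p alone, and the split of 1031 higher and 1254 lower became 560 and 1984 with library sizes alone and 255 and 2946 on log2(TPM + 1). The cause of these moves was not tested.

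A replicate block gave 2276 called genes, 2256 of them shared with the fit without it, and the same 4 components were among them. Same-numbered libraries deviated together only weakly over all tested genes (correlation 0.168, or 0.409 over the 4610 genes with a log2 CPM of at least 5), and 2 pairs do not establish a pairing. Component transcripts called were 4 with the block, under which *kuz-RC* (adjusted p = 0.0616), *Su(dx)-RB* (0.0509) and *H-RC* (0.0631) lost their calls in edgeR, and 0 to 1 with a library left out. Low depth limits *Dl*, *Ser*, *fng*, *Tace* and the untested genes, and isoform splits rest on Salmon's assignment of shared reads.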
